A study of Drosophila melanogaster with 10 samples.

Results

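PARIS (ZNF746) is a human zinc finger protein with a KRAB domain that silences genes in the nucleus, and its C571A form carries an alanine in place of a cysteine of the DNA-binding part. The data described here compare the translatome of fly dopaminergic (DA) neurons that express PARIS WT with that of DA neurons that express PARIS C571A, over 6 of the 10 libraries of the series and all 17722 genes in the table of these groups. In both groups the *dTH-Gal4* driver (strain w1118XdTH-Gal4) switched on *UAS-GFP::RpL10A*, a ribosomal protein fused to GFP, together with a human PARIS transgene (hPARIS), so that the groups differ in the form of the transgene and none of the 6 libraries lacks it. Tagged ribosomes were captured through their GFP and their mRNAs were sequenced (TRAP-seq). A gene's count follows how many ribosomes carry its mRNA, how many tagged cells a library holds and any mRNA that comes from untagged cells. These cannot be told apart, and photoreceptor genes, described below, had high values in all 6 libraries. Each group has 3 libraries of independent samples of male and female heads, with 500 heads per PARIS C571A library and 1500 heads per PARIS WT library. The number of heads and the form of PARIS therefore cannot be told apart in any comparison below. The labels give an age of 30 days for both groups, while the methods place collection soon after eclosion. The level of the transgene itself was not analysed here.

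DA neurons make dopamine from tyrosine with tyrosine hydroxylase (*ple*) and dopa decarboxylase (*Ddc*), load it into vesicles through *Vmat* and take it up again through *DAT*. PARIS is known from mammalian neurons as a repressor of PGC-1α, a coactivator that turns on genes of mitochondrial biogenesis, and the mutant serves here as the reference for PARIS WT. Ribosomal protein genes, which fill much of any translatome, form a further class with a shared start site. In flies their transcription begins in a run of pyrimidines, and the run near the start sets them apart from most other genes.

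The libraries differed in depth and in what filled them. Gene counts, estimated by the authors from transcript abundances, ranged from 8838260 to 50237670 per library. Replicates 1 and 3 of each group gave 34.3% to 53.4% of their counts to *mt:ATPase6*, a subunit gene of ATP synthase, which had no counts in replicate 2 of either group. Nuclear rRNA genes took 15.3%, 33.0% and 16.3% of the counts in PARIS C571A replicates 1 to 3 and 35.8%, 43.3% and 28.9% in PARIS WT. Counts are therefore given as CPM, the usual unit for a count relative to its library total, which was scaled by TMM, a factor from the genes that differ least. Pearson's r of log2 CPM lay between 0.73 and 0.77 for libraries of the same group and between 0.70 and 0.76 for libraries of different groups. Of 17691 genes in both the table of these groups (the 2-group table) and the table that also holds TRAP control (the 3-group table), 709 had counts that differed by over 5% and over 10 counts in at least 1 of the same 6 libraries, so each gene named below was looked up in both.

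Very few genes were separated by the test. Among 9460 genes that passed the expression filter, the quasi-likelihood F-test of edgeR (Benjamini-Hochberg adjusted p under 0.05) called 4 genes lower in PARIS WT (0.0423% of the genes tested) and 1 gene higher (0.0106%). The number depends on the method, with 185 lower and 136 higher by DESeq2's defaults and 0 and 0 by edgeR with a replicate block. Without adjustment, p was under 0.05 for 409 lower genes (4.32%) and 391 higher genes (4.13%). The groups were apart, with the 3 libraries of one beyond the 3 of the other, for 862 genes lower in PARIS WT (9.11%) and 771 genes higher there (8.15%). The median log2 fold change of PARIS WT over PARIS C571A was −0.03, and 65.8% of the genes had a fold change within 0.5 on the log2 scale. A 95% interval within −1 and 1 was reached by 3465 genes (36.6%), so for most genes a 2-fold difference lay inside the interval. The median biological coefficient of variation of a gene was 0.44.

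Of the 5 genes called, *GstE1* and *CG4836* had counts in all 6 libraries and the same counts in both tables. *GstE1*, an epsilon-class glutathione S-transferase that couples glutathione to reactive compounds, had 41.0, 42.7 and 39.1 CPM in PARIS C571A and 120.5, 123.9 and 138.7 CPM in PARIS WT. All 3 PARIS WT libraries stood far above all 3 PARIS C571A libraries, and the spread within each group was small beside the gap. *GstE1* rose by 1.64 on the log2 scale (standard error 0.11, adjusted p = 0.0102 from edgeR), which is 3.12-fold with a 95% interval from 2.59 to 3.75. *CG4836*, on chromosome arm 3R from 20013872 to 20018248 on the plus strand (BDGP6.54), had 42.8, 32.3 and 43.1 CPM in PARIS C571A and 7.83, 8.77 and 10.03 CPM in PARIS WT. The groups did not overlap, and *CG4836* was 4.43-fold higher in PARIS C571A (log2 fold change −2.15, standard error 0.20, adjusted p = 0.0433 from edgeR). Its adjusted p was above 0.05 whichever of the 6 libraries was left out, between 0.0523 and 0.167, and was 0.0558 with the counts of the 3-group table. *GstE1* lost its call without PARIS C571A replicate 2 (adjusted p = 0.0523), without PARIS C571A replicate 3 (0.0649) or without PARIS WT replicate 3 (0.0601). With library totals alone, adjusted p was 1.00 for *GstE1* and 0.472 for *CG4836*.

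**Figure D1:**
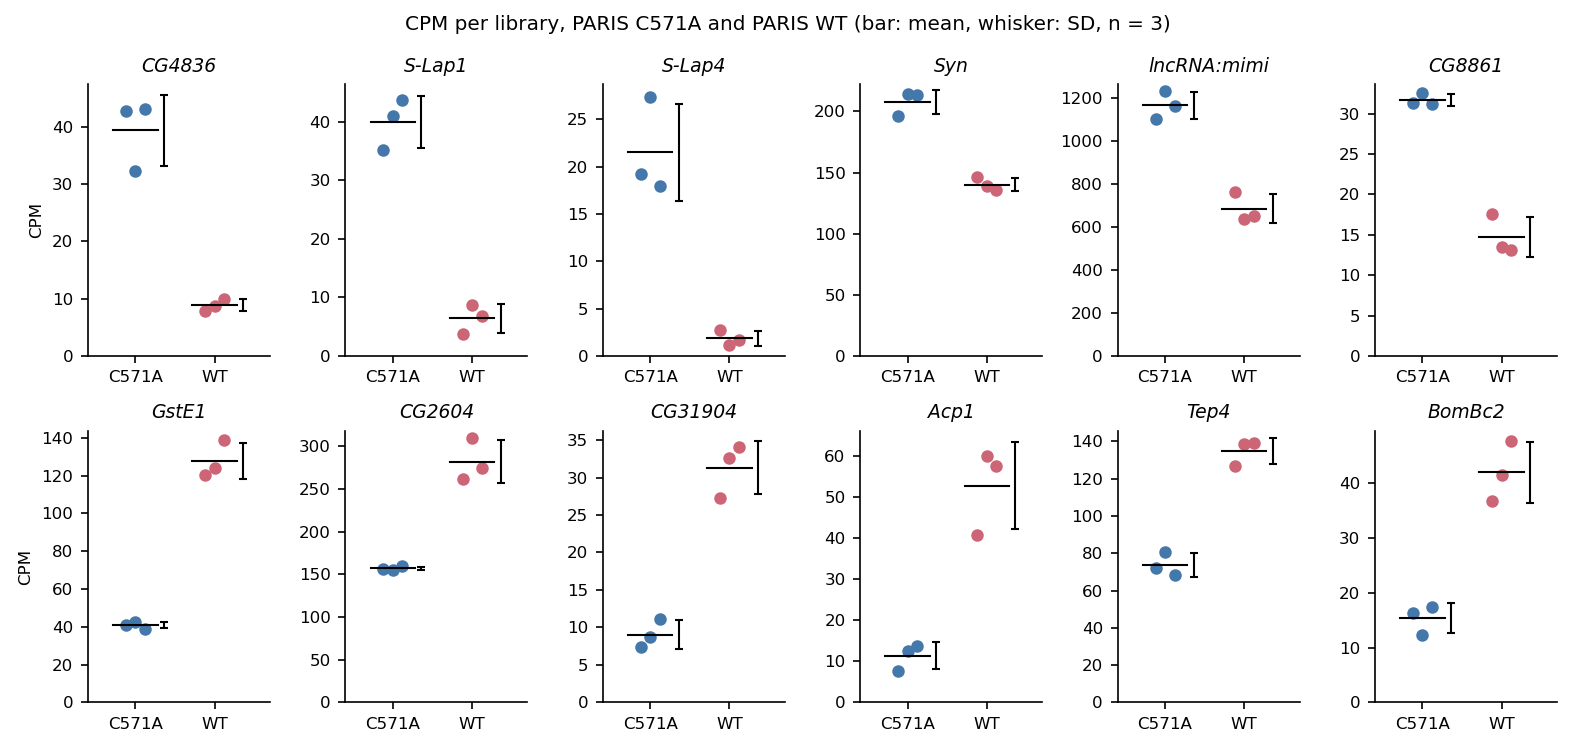
CPM (vertical axes, starting at 0) of 12 genes in the 3 PARIS C571A libraries (blue) and the 3 PARIS WT libraries (red), with the mean as a bar and the SD as a whisker. The upper row holds genes lower in PARIS WT, from *CG4836* at 7.83 to 10.03 CPM, and the lower row genes higher there, from *GstE1* at 120.5 to 138.7 CPM. In no panel do the groups overlap, which for all but *CG4836* and *GstE1* is part of the rule by which the genes were chosen.

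The other 3 genes called had zeros in PARIS WT throughout, and for 2 of them this held in 1 table only. *CHOp24*, a member of the p24 family of cargo receptors of the early secretory pathway, had 410, 365 and 877 counts in PARIS C571A and 0 in PARIS WT in both tables. It was at least 103-fold lower in PARIS WT, taken against 3 counts per library (adjusted p = 0.0433 from edgeR), and the call was lost with the counts of the 3-group table (0.0558), without any one of the PARIS C571A libraries (0.137 to 0.185) and without PARIS WT replicate 3 (0.0744). *Su(z)2*, a Polycomb group protein that helps keep chromatin silent, had 1558, 1203 and 1901 counts in PARIS C571A and 0 in PARIS WT, but 1222, 638 and 838 in the same PARIS WT libraries of the 3-group table. *RpLP1*, an acidic protein of the ribosomal stalk, changed sides between the tables. It had 8920, 8327 and 15875 counts in PARIS C571A and 0 in PARIS WT in the 2-group table, against 0 in PARIS C571A and 10554, 6734 and 13628 in PARIS WT in the 3-group table. The call for *RpLP1* (adjusted p = 9.6e-04 from edgeR) was therefore turned round with the counts of the 3-group table (adjusted p = 0.0011, higher in PARIS WT), and that for *Su(z)2* (adjusted p = 0.00565) was lost (adjusted p = 0.992). *Su(z)2* also lost its call without PARIS C571A replicate 2 (0.0523) or replicate 3 (0.0512), and *RpLP1* without PARIS C571A replicate 2 (0.0523).

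**Figure D2:**
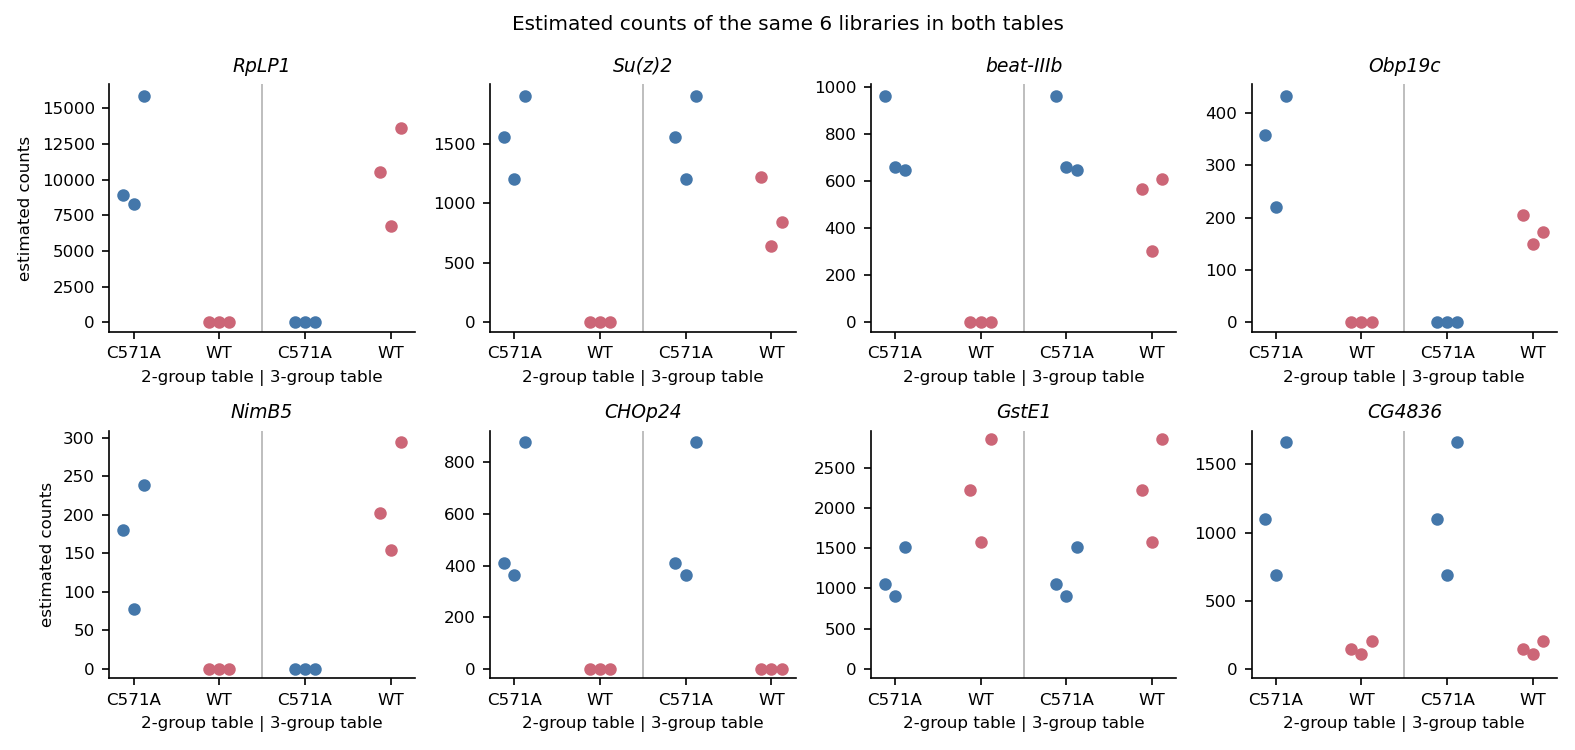
Estimated counts (vertical axes, linear) of 8 genes in the same 6 libraries, in the 2-group table (left of the grey line) and in the 3-group table (right of it), for PARIS C571A (blue) and PARIS WT (red). *RpLP1*, *Obp19c* and *NimB5* move their zeros from PARIS WT to PARIS C571A, *Su(z)2* and *beat-IIIb* hold counts in PARIS WT in the 3-group table only, and *CHOp24*, *GstE1* and *CG4836* keep their counts.

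Genes present in one group only were looked at as a class. Of 17722 genes, 83 were at 0 throughout PARIS WT with at least 10 counts in each PARIS C571A library, 3 of which were called, and 10 genes had the reverse pattern. Outside mitochondrially encoded and nuclear rRNA genes, PARIS C571A libraries held 10239356, 8265140 and 15100732 counts and PARIS WT libraries 7429605, 4988833 and 8087709. A bound of 10 counts is thus easier to reach in PARIS C571A, and the 83 and the 10 cannot be set against each other. The pattern was found again in the 3-group table for 72 of the 83 and for all 10 of the others. For 10 of the 83 genes each PARIS WT library held at least 10 counts in the 3-group table, and for 5 of these 10 it was PARIS C571A that had none. The latter include *Obp19c*, an odorant-binding protein gene with 358, 220 and 433 counts in PARIS C571A here and 205, 150 and 172 in PARIS WT in the 3-group table, and *NimB5*, a gene of the Nimrod family. The neuronal adhesion gene *beat-IIIb* had 964, 662 and 650 counts in PARIS C571A in both tables, and in PARIS WT 0 in this table and 566, 305 and 608 in the other. Among the 10 genes without counts in PARIS C571A, *CG31223* had 146, 110 and 84 counts in PARIS WT, at least 61.3-fold higher against 3 counts per library (adjusted p = 0.139 from edgeR). *hd*, a gene needed for DNA replication, had 45, 68 and 83 (at least 35.1-fold, adjusted p = 0.249), and both were the same in the 3-group table. Zeros were also frequent in single libraries. A gene at 0 in 1 library and with at least 50 counts in each of the other 5 occurred 23, 69 and 33 times in PARIS C571A replicates 1 to 3 and 32, 116 and 50 times in PARIS WT, most often in replicate 2 of each group.

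The genes next in rank, those with the smallest p-values among genes with counts in every library, no overlap of the groups and the same counts in both tables, did not pass the test. The lower ones included genes of sperm aminopeptidases and *Syn*. *S-Lap1*, one of the leucyl aminopeptidases that are abundant in fly sperm, had 35.1, 40.9 and 43.7 CPM in PARIS C571A and 3.73, 8.69 and 6.83 CPM in PARIS WT (log2 fold change −2.64, standard error 0.33, adjusted p = 0.0846 from edgeR). Its relative *S-Lap4* had 19.2, 27.4 and 17.9 CPM against 2.70, 1.17 and 1.696 (−3.52, standard error 0.41, adjusted p = 0.0846). *loopin-1*, a further sperm aminopeptidase, had a log2 fold change of −3.40 and *CG34168* one of −2.46. *Syn*, which encodes synapsin, a protein that tethers synaptic vesicles, had 196.5, 214.2 and 213.3 CPM in PARIS C571A and 146.1, 139.0 and 135.7 in PARIS WT (−0.57, standard error 0.09, adjusted p = 0.181). The long non-coding RNA *lncRNA:mimi* had 1104, 1234 and 1163 CPM against 764, 638.5 and 654.0 (−0.77, adjusted p = 0.0846).

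*stnB* headed this group by p-value, and its counts were set beside those of its locus partner. *stnA* and *stnB* are the products of the dicistronic stoned locus, whose proteins act in the retrieval of synaptic vesicles, and share 1 annotated span on the X chromosome. *stnB* had 263.0, 270.7 and 293.2 CPM in PARIS C571A and 36.2, 56.8 and 69.9 in PARIS WT (log2 fold change −2.34, standard error 0.24, adjusted p = 0.0642 from edgeR). *stnA* had 0, 16.8 and 0 CPM in PARIS C571A and 258.2, 255.2 and 0 in PARIS WT. Summed over both genes, the PARIS C571A libraries held 263.0, 287.5 and 293.2 CPM and the PARIS WT libraries 294.4, 312.0 and 69.9. The sums of the groups overlap, and PARIS WT replicate 3 alone is low. How reads were divided between these genes was not tested.

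Of the genes with higher values in PARIS WT that did not pass the test, *Acp1*, *BomBc2* and *Tep4* encode secreted proteins. *Acp1*, an adult cuticle protein gene, had 7.75, 12.6 and 13.8 CPM in PARIS C571A and 40.6, 59.98 and 57.4 in PARIS WT (log2 fold change 2.21, standard error 0.28, adjusted p = 0.0846 from edgeR). *BomBc2*, a Bomanin, one of the short immune peptides induced by Toll signalling, had 16.3, 12.3 and 17.4 CPM against 36.7, 41.5 and 47.7 (1.45, standard error 0.20, adjusted p = 0.109). *Tep4*, a thioester-containing protein of the immune response, had 72.2, 80.8 and 68.2 CPM against 126.6, 138.4 and 139.2 (0.87, standard error 0.11, adjusted p = 0.0846). *CG2604* was among the tightest of all, with 156.4, 155.3 and 159.3 CPM against 261.3, 310.2 and 274.6 (0.85, adjusted p = 0.0846). *CG31904* (1.79), *CG30197* (0.98), *bero* (0.82) and the rRNA pseudogene *28SrRNA-Psi:CR45855* (1.17) complete the set, with adjusted p between 0.0846 and 0.136 from edgeR. These 8 genes were taken only from genes whose groups do not overlap, so the gap between their groups is part of the choice.

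The cytosolic ribosomal protein genes, whose products build the ribosome on which the assay rests, lay a little higher in PARIS WT as a class. Of 93 genes 84 were tested, and 48 of these (57.1%, against 8.15% of all genes tested) were apart and higher in PARIS WT. Of the 84, 45 had an unadjusted p-value under 0.05 from edgeR in that direction, against 4.13% of all genes. None of the 48 passed the adjusted threshold, and *RpLP1*, called lower, is the gene whose zeros depend on the table. The median log2 fold change was 0.28, against −0.03 over all genes, with 0.30 for the large subunit (50 genes tested) and 0.23 for the small subunit (34 genes). Summed over the 93 genes, PARIS C571A held 43385, 40824 and 45624 CPM and PARIS WT 50668, 49735 and 54983 CPM, a ratio of the means of 1.20. The 77 members with counts in every library ranged from −0.29 to 0.98, with quartiles of 0.18 and 0.36, and 71 of them were positive. Of the 77, 47 were apart and higher.

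*RpS5a* had 417.9, 418.9 and 441.2 CPM in PARIS C571A and 568.5, 583.8 and 583.0 in PARIS WT (log2 fold change 0.44, standard error 0.07, adjusted p = 0.182 from edgeR). *RpS19a* had 320.6, 326.5 and 372.1 CPM against 482.0, 477.3 and 500.4 (0.52, standard error 0.09, adjusted p = 0.21). *RpL13A* had 1184, 1242 and 1301 CPM against 1521, 1580 and 1672 (0.36, standard error 0.07, adjusted p = 0.254). In each of the 3 genes the groups were apart, by more than the range within either group. *RpL28* and *RpL37A* had log2 fold changes of 0.49 and 0.58.

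**Figure D3:**
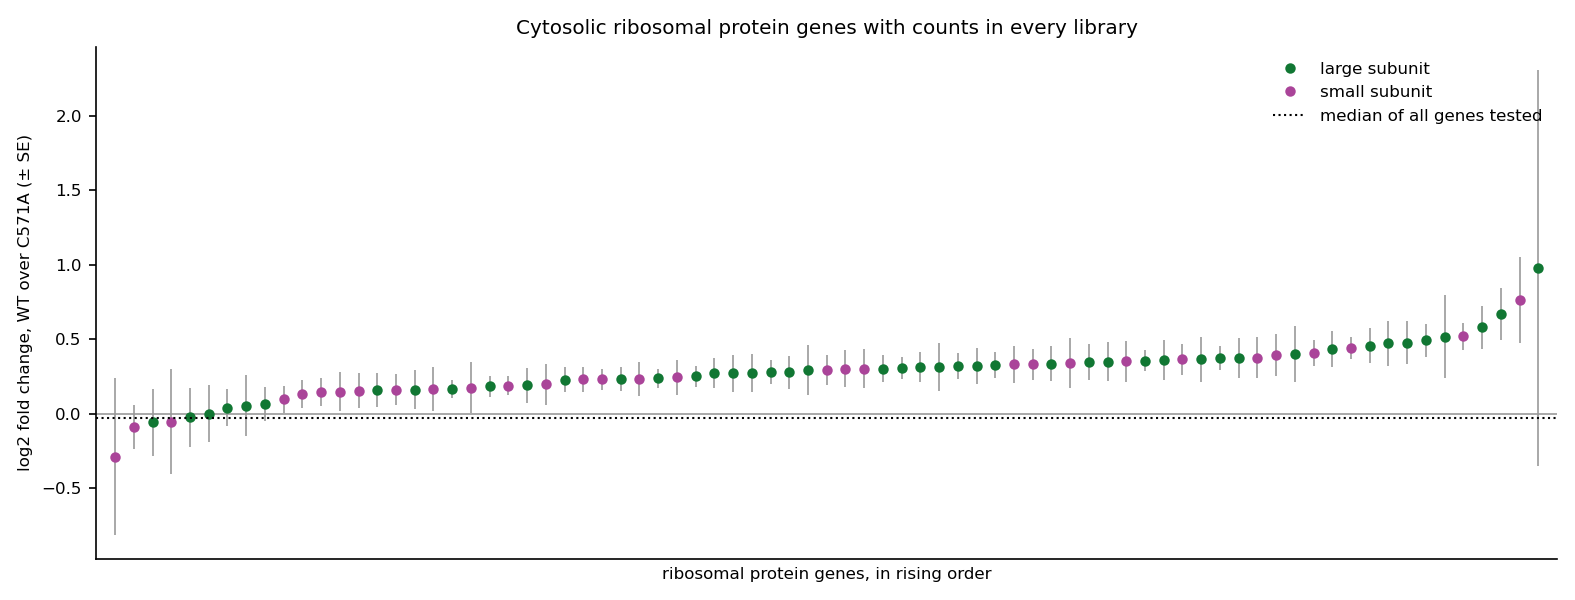
Log2 fold change of PARIS WT over PARIS C571A (vertical axis, ± SE) for the 77 cytosolic ribosomal protein genes with counts in every library, in rising order, with large-subunit genes in green, small-subunit genes in purple and the median of all genes tested (−0.03) dotted. Of the 77 points 71 lie above 0, and the quartiles are 0.18 and 0.36.

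The start sites of these genes were read from the RefSeq annotation of the fly genome (Release 6), to show the pyrimidine run that the class shares. The windows hold 30 bases before the annotated start and 25 bases from the start on. The motif TCTTT, searched on the gene's own strand from base −10 to base 25 of the start, was found in 49 of the 84 ribosomal protein genes tested (58.3%) and in 615 of 13945 protein-coding genes (4.41%). It occurred in 29 of the 48 members whose groups were apart (60.4%) and in 20 of the other 36 (55.6%), and no test was made of these shares. Shown are 5 members that were apart, from those with the smallest p-values, and *RpLP1*, each 5′ to 3′ with TCTTT in capitals. They lie at chrX:17148240-17148294 (*RpS5a*, minus strand), chrX:16637864-16637918 (*RpS19a*, plus), chr3R:5624444-5624498 (*RpL13A*, plus), chr3L:3222934-3222988 (*RpL28*, minus), chr2L:5070970-5071024 (*RpL37A*, plus) and chr2L:419922-419976 (*RpLP1*, plus).
RpS5a: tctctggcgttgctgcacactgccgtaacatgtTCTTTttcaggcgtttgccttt
RpS19a: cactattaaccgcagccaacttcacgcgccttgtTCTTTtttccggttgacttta
RpL13A: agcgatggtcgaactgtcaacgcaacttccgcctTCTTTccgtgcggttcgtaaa
RpL28: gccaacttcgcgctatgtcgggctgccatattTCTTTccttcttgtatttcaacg
RpL37A: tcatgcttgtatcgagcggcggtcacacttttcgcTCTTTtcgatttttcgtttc
RpLP1: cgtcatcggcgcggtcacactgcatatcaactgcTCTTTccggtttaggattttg
The 6 runs differ outside the capitals, and the motif begins between base 3 and base 6, counted from the annotated start as base 1.

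Other measures differed along with the ribosomal protein genes, and their part in the difference was not tested. Ribosomal protein genes are short, with a median exon length of 921.5 bases against 2134 over all genes tested. Among genes with a mean over 50 CPM, cut by length into 5 equal classes, the share apart and higher in PARIS WT was 33.4% in the shortest class and 10.45% to 15.7% in the other 4, and 22.5% in the shortest class without the ribosomal protein genes. Over all genes tested, cut in the same way, the shortest class had 9.87% apart and higher and 11.8% apart and lower. The other 4 classes then had 7.02% to 8.45% apart and higher and 7.50% to 9.46% apart and lower. Ribosomal RNA genes were higher too, with 10 of 12 tested members apart (83.3%, against 8.15% of all genes) and a median log2 fold change of 0.66. *28SrRNA:CR45837* had 0.89 (standard error 0.17, adjusted p = 0.254 from edgeR) and *18SrRNA:CR45838* 0.81 (standard error 0.16, adjusted p = 0.254). The separation also rests on the scaling. With library totals alone, of which *mt:ATPase6* holds 34.3% to 53.4% in 4 of the 6 libraries, fewer genes of any kind were apart. The shares over all genes tested were then 1.82% higher and 5.12% lower. On that scale 0 of the 12 rRNA genes and 0 of the 84 ribosomal protein genes were apart in the higher direction. The latter count was 46 with median-of-ratios factors and 47 with TMM factors computed without rRNA and mitochondrially encoded genes.

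Proteins that work with the ribosome were looked at next. *eEF2*, the translocase of the ribosome, had 1871, 2008 and 1908 CPM in PARIS C571A and 2488, 2404 and 2342 in PARIS WT (log2 fold change 0.32, standard error 0.06, adjusted p = 0.254 from edgeR). *eEF1alpha1*, which delivers aminoacyl-tRNA, had 4392, 4224 and 4566 against 5143, 5307 and 5482 (0.27, adjusted p = 0.269), and the initiation factor gene *eIF3g1* had a log2 fold change of 0.79. Of 42 initiation and elongation factor genes tested, 7 were apart and higher (16.7%) and 2 apart and lower (4.76%), against 8.15% and 9.11% of all genes, with a median of 0.04 that changed sign between alternatives. The 70 mitochondrial ribosomal protein genes tested had a median of −0.01, with 4 apart and higher (5.71%) and 1 apart and lower (1.43%), both below the share of all genes. Both of these lists and that of the rRNA genes were chosen after values had been seen.

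**Figure D4:**
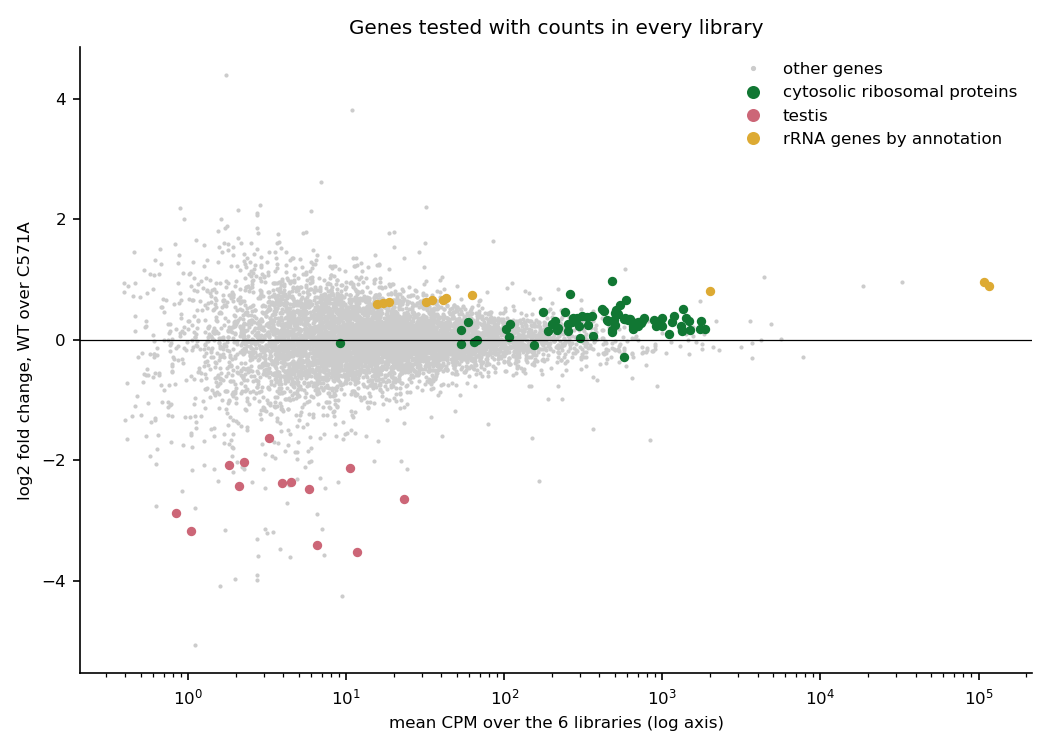
Log2 fold change of PARIS WT over PARIS C571A (vertical axis) against mean CPM over the 6 libraries (horizontal log axis) for the genes tested with counts in every library, with ribosomal protein genes in green, testis genes in red and rRNA genes in yellow. The ribosomal protein genes lie in a narrow band above 0 (77 genes, −0.29 to 0.98), the rRNA genes above 0, and the testis genes far below 0 among the genes of low CPM.

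Genes of the male germ line lay far lower in PARIS WT, although none passed the test. Of 36 testis genes 31 were tested, 23 of these were apart and lower (74.2%, against 9.11% of all genes tested) and 2 the reverse, and the median log2 fold change was −2.78. Genes with so few counts in PARIS WT can pass the expression filter through PARIS C571A alone, so this share cannot be set against that of all genes. Summed over all 36, tested or not, CPM was 187.0, 225.8 and 213.2 in PARIS C571A and 30.4, 38.1 and 38.0 in PARIS WT. This gap is many times the spread within either group. *Mst87F*, a sperm tail protein gene, had 6.04, 5.41 and 8.37 CPM in PARIS C571A and 1.19, 1.33 and 1.31 in PARIS WT (log2 fold change −2.37, standard error 0.49, adjusted p = 0.254 from edgeR). *ocn*, which encodes a basic protein of the testis, had 8.57, 8.13 and 13.1 CPM against 1.62, 1.10 and 2.62 (−2.47, adjusted p = 0.254), and *S-Lap2* 17.3, 14.7 and 19.7 against 1.19, 5.72 and 5.04 (−2.12, adjusted p = 0.333). *S-Lap3*, from the same family, ran the other way, with no counts in PARIS C571A and 1.40, 4.93 and 1.84 CPM in PARIS WT, and family members of like sequence could share reads. edgeR called 0 of the 31, with 19 lower and 1 higher where the p-value was left unadjusted (under 0.05 for 4.32% and 4.13% of all genes). With library totals alone 22 of the 31 were still apart and lower (71.0%, against 5.12% of all genes), and the same limit holds for this share.

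Genes of the accessory gland, the male organ of seminal fluid proteins, also lay lower, each of them near the limit of detection. Of 23 members 5 were tested, and 4 of these were apart and lower (80.0%, against 9.11% of all genes). A gene of so few counts can pass the expression filter through its higher group alone, so this share cannot be set against that of all genes. Of the 5, 0 had an adjusted or unadjusted p-value under 0.05 from edgeR, and 3 of the 23 had counts that differ between the tables. The sums over the 23 were 10.8, 8.6 and 18.6 CPM in PARIS C571A and 3.8, 2.2 and 3.9 in PARIS WT. *Acp62F* had 0.66, 0.89 and 1.499 CPM against 0.27, 0.16 and 0.29. Testis-type paralogs of respiratory subunits had sums of 17.5, 13.6 and 13.5 CPM against 3.2, 3.4 and 2.4, and 3 of 6 tested members apart and lower (against 9.11% of all genes), *SdhCL*, *ND-24L* and *COX5BL*. Only 6 of 24 paralogs passed the filter, and the same limit holds for their share. Heads hold neither organ, and what share of each library came from other body parts, or from males, was not tested. The yolk protein gene *Yp2*, made in females, had 3935, 4188 and 4068 CPM in PARIS C571A and 3186, 3448 and 3268 in PARIS WT (log2 fold change −0.30, standard error 0.06, adjusted p = 0.254 from edgeR). The other 2 yolk protein genes tested, *Yp1* and *Yp3*, were not apart, and the median of the 3 was 0.00.

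**Figure D5:**
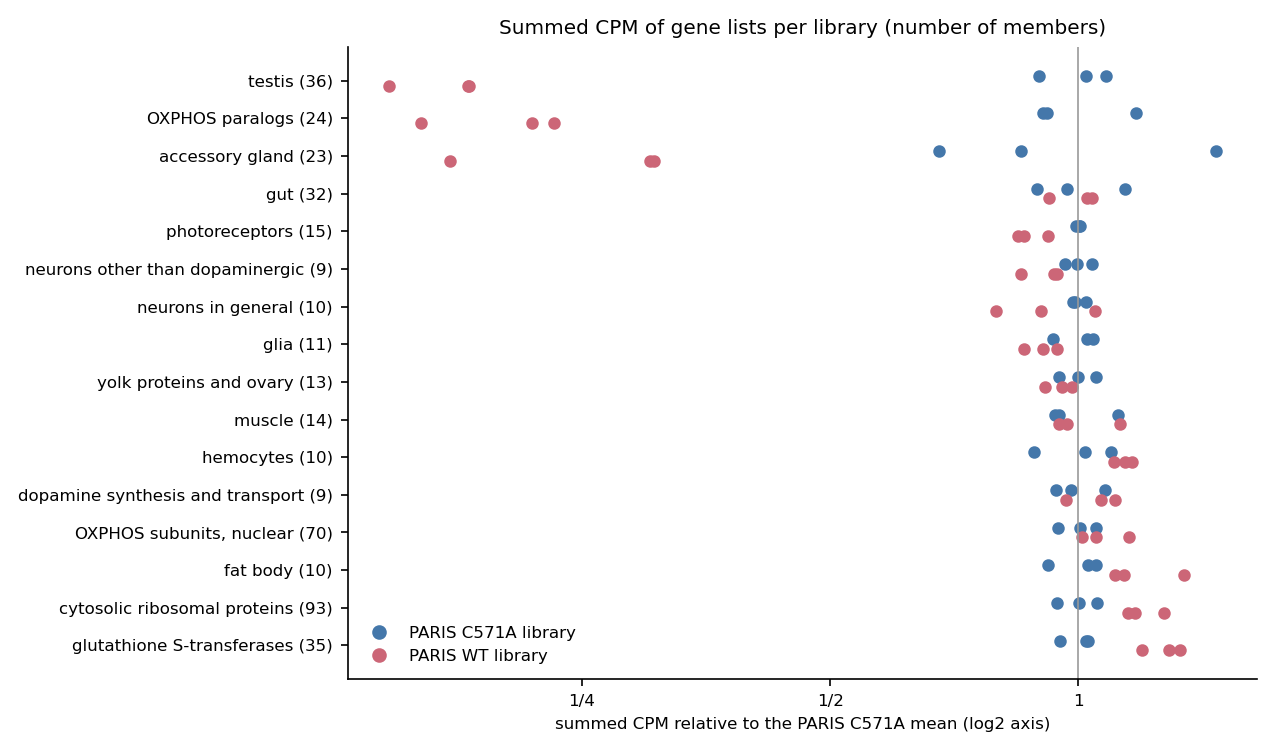
Summed CPM of 16 gene lists in each library, relative to the mean of the PARIS C571A libraries (horizontal log2 axis), with PARIS C571A in blue and PARIS WT in red and the number of members in brackets. The testis, accessory gland and respiratory paralog lists lie apart and lower in PARIS WT, the ribosomal protein and glutathione S-transferase lists apart and higher, and the sums of the muscle, gut, dopamine and general neuron lists overlap between the groups.

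The genes that define DA neurons were present in both groups. *ple* had 69.1, 62.2 and 71.4 CPM in PARIS C571A and 0, 44.6 and 49.3 in PARIS WT, so that it was listed at 0 in PARIS WT replicate 1 alone, and its log2 fold change was −1.11 (standard error 1.44, adjusted p = 0.962 from edgeR). *Ddc* had 134.6, 147.5 and 161.5 CPM against 167.2, 152.4 and 147.2, and its groups overlapped. *Vmat*, the vesicular monoamine transporter gene, had 155.7, 130.4 and 162.9 CPM against 169.6, 191.2 and 191.0 (0.30, standard error 0.12, adjusted p = 0.578). *DAT*, the dopamine transporter gene, had 46.6, 38.8 and 48.6 CPM against 67.03, 56.2 and 72.1 (0.54, adjusted p = 0.346), with counts that differ between the tables. *Hn*, whose enzyme hydroxylates phenylalanine to tyrosine, had 51.4, 34.3 and 48.1 CPM against 61.4, 70.9 and 64.4 (0.56, adjusted p = 0.45). Of the 9 genes of dopamine synthesis and transport, 4 were apart and higher (44.4%, against 8.15% of all genes), *ple* was apart and lower, and none was called by edgeR (3 at an unadjusted p-value under 0.05, all higher, against 4.13% of all genes). Of 9 tested DA neuron biomarkers named by the study, a list that shares *ple*, *Vmat* and *DAT*, 2 were apart and higher and 2 apart and lower. This is 22.2% each, against 8.15% and 9.11% of all genes, and the median was −0.18.

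Markers of other cells were also in the libraries, and their share in the differences above was not tested. Photoreceptor genes summed to 16187, 16206 and 16024 CPM in PARIS C571A and to 14829, 13885 and 13641 in PARIS WT, and 5 of 15 members were apart and lower (33.3%, against 9.11% of all genes). *ninaE*, which encodes the main rhodopsin, had 8477, 8891 and 8128 CPM against 7965, 6663 and 6376 (log2 fold change −0.28, standard error 0.10, adjusted p = 0.493 from edgeR), and the photoreceptor arrestin gene *Arr1* 920.6, 866.1 and 953.2 against 792.5, 805.1 and 823.2 (−0.18, adjusted p = 0.571). With library totals alone none of the 15 was apart, and 5.12% of all genes were apart and lower. Of 9 genes of neurons other than dopaminergic, 2 were apart and lower and 2 apart and higher (22.2% each, against 9.11% and 8.15% of all genes), with a median of −0.02 that changed sign between alternatives. The lower ones were the vesicular transporters, while *Gad1* and *ChAT*, the enzymes that make GABA and acetylcholine, were not apart. *VGAT*, the vesicular GABA transporter gene, had 55.8, 39.7 and 39.1 CPM against 25.4, 29.5 and 22.7 (−0.79, standard error 0.20, adjusted p = 0.316), and *VAChT*, that for acetylcholine, 184.7, 222.4 and 188.2 against 161.6, 134.5 and 125.4 (−0.50, adjusted p = 0.333). Sums over 11 glial genes lay between 1040.0 and 1165 CPM in PARIS C571A and between 959.3 and 1051 in PARIS WT. Muscle, gut and general neuron lists had overlapping sums, but their members did not all overlap. Of 11 gut genes tested, 3 were apart and lower and none higher. Their median log2 fold change was −1.17, between −1.37 and −0.68 under the alternatives. Of 10 general neuron genes 2 were apart and lower and none higher (median −0.13). Of 13 muscle genes tested, 1 was apart in each direction (median 0.07). None of these genes was called. The fat body list was apart and higher in PARIS WT (1390 to 1590 CPM against 1676 to 2030), and hemocyte genes, of the blood cells, had 196.1 to 243.0 against 245.0 to 257.9.

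Genes of the synaptic vesicle cycle, by which neurons release transmitter, lay lower in part. Of 23 members, all tested, 6 were apart and lower (26.1%, against 9.11% of all genes), among them *stnB*, *Syn*, *comt* and *Vha100-1*, where *stnB* is the gene whose sum with *stnA* overlapped, none was apart and higher, and the median log2 fold change was −0.09. *comt*, the NSF ATPase that takes SNARE complexes apart, had 57.6, 43.6 and 48.3 CPM in PARIS C571A and 37.4, 42.0 and 35.3 in PARIS WT (−0.38, standard error 0.15, adjusted p = 0.576 from edgeR). *Nmda1*, a glutamate receptor subunit gene, had 26.6, 27.8 and 28.8 CPM against 16.0, 14.8 and 17.0 (−0.80, standard error 0.15, adjusted p = 0.254). Of the sodium-potassium pump, the beta subunit genes *nrv2* and *nrv3* were apart and lower and the other 4 tested members were not (33.3%, against 9.11% of all genes). *nrv2* is among the network genes that the study chose on these samples, so its direction is no independent evidence. *nrv3* had 783.9, 781.0 and 837.7 CPM against 708.4, 706.3 and 661.5 (−0.21, standard error 0.07, adjusted p = 0.494).

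Glutathione S-transferase genes, the family of *GstE1*, were mostly higher in PARIS WT. Of 35 members 29 were tested, 9 were apart and higher (31.0%, against 8.15% of all genes) and none lower, the median log2 fold change was 0.26, and *GstE1* alone was called. Their sums were 587.5, 546.2 and 591.1 CPM in PARIS C571A and 687.3, 764.7 and 742.1 in PARIS WT. *GstE6* had 13.7, 11.6 and 9.72 CPM against 17.0, 21.9 and 25.4 (0.88, standard error 0.24, adjusted p = 0.333 from edgeR), and *GstD1*, the most studied of the delta class, 72.8, 74.3 and 90.2 against 107.5, 102.8 and 114.6 (0.45, adjusted p = 0.333). The epsilon genes lie side by side and are alike in sequence, so some of their reads could be divided between them. With library totals alone 1 member was apart and higher and 1 apart and lower (3.45% each, against 1.82% and 5.12% of all genes). Of 17 other antioxidant genes tested, 2 were apart and higher (11.8%), a share near the 8.15% of all genes, namely the superoxide dismutase genes *Sod2* and *Sod1*. *Sod2* had 23.1, 29.1 and 27.7 CPM against 34.6, 38.4 and 42.5 (0.53, standard error 0.16, adjusted p = 0.395). Among the cytochrome P450 genes, a family that oxidises lipids and foreign compounds, 12 of 68 tested members were apart and higher (17.6%, against 8.15% of all genes) and 5 lower (7.35%, against 9.11%). *Cyp4g1*, the P450 of cuticular hydrocarbon synthesis, had 15.96, 17.4 and 17.6 CPM against 7.13, 5.80 and 4.55 (−1.54, standard error 0.27, adjusted p = 0.21), whereas *Cyp28a5* had 25.5, 33.8 and 18.8 against 68.6, 41.7 and 45.7 (1.00, adjusted p = 0.362).

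Mitochondrial genes did not share one direction. Of 68 nuclear genes for subunits of oxidative phosphorylation 14 were apart and higher in PARIS WT (20.6%, against 8.15% of all genes) and 1 lower (1.47%), with a median log2 fold change of 0.13. With library totals alone 2 were apart and higher (2.94%, against 1.82% of all genes) and 0 lower (against 5.12%). *blw*, the alpha subunit of ATP synthase, had 545.1, 591.1 and 520.5 CPM against 686.7, 682.0 and 717.0 (0.33, standard error 0.08, adjusted p = 0.295 from edgeR). *Cyt-c1* had a log2 fold change of 0.48, *ND-42* one of 0.36 and *Opa1*, which fuses inner membranes, one of 0.45. The 10 mitochondrially encoded subunits all had negative values, with a median of −0.38. *mt:CoI*, the core of complex IV, had 956.1, 803.1 and 956.8 CPM in PARIS C571A and 687.8, 685.4 and 668.3 in PARIS WT (−0.41, standard error 0.09, adjusted p = 0.269), and it was the only one of the 10 whose groups were apart. Of 11 tested genes of mitochondrial biogenesis, among them the PGC-1 homolog *srl*, none was apart in either direction, and edgeR gave 0 with an adjusted and 0 with an unadjusted p-value under 0.05.

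Among genes of apoptosis, none of which passed the test, *Dronc* had the smallest p-value. *Dronc*, the initiator caspase, had 16.4, 20.3 and 20.1 CPM in PARIS C571A and 9.67, 9.24 and 8.77 in PARIS WT (log2 fold change −1.04, standard error 0.21, adjusted p = 0.254 from edgeR). *Dark*, the Apaf-1 homolog that activates it, had 32.0, 24.0 and 28.5 CPM against 17.2, 17.6 and 11.3 (−0.88, standard error 0.23, adjusted p = 0.325). *Dredd*, a caspase of immune signalling, had a log2 fold change of −0.56, and *Debcl*, of the Bcl-2 family, had 15.3, 16.3 and 16.6 CPM against 24.3, 26.3 and 22.96 (0.61, adjusted p = 0.32). Of 17 tested genes of apoptosis 4 were apart and lower (23.5%, against 9.11% of all genes) and 1 apart and higher (5.88%, against 8.15%), and the median, −0.04, changed sign between alternatives. *Dark* also belongs to a list of 10 network genes that the study chose on these samples, so that its direction is no independent evidence. Of that list 9 genes were tested, all 9 were apart and lower, and *Su(z)2* alone was called. *Appl*, the fly amyloid precursor protein gene, had 265.7, 320.3 and 271.5 CPM against 207.1, 209.2 and 192.5, and *Eaat2*, a glial transporter gene, 75.9, 68.6 and 55.6 against 46.6, 43.2 and 48.6. Of the others, *CtsL3* turned its direction in the 3-group table (adjusted p = 0.262).

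Immune peptide genes went both ways. Of 21 tested 5 were apart and higher and 5 apart and lower (23.8% each, against 8.15% and 9.11% of all genes). Of the higher ones 4 were Bomanins, while the other Bomanins tested were not apart and had values on both sides of 0, and the lower ones included attacins and a diptericin. *BomBc1* had 0.23, 0 and 0.49 CPM in PARIS C571A and 12.3, 9.87 and 16.3 in PARIS WT (log2 fold change 5.64, standard error 1.09, adjusted p = 0.254 from edgeR). *BomS4* had 0.93, 0.47 and 0.80 CPM against 2.86, 2.19 and 3.00. *AttC*, an attacin gene driven by Imd signalling, had 5.33, 6.39 and 12.7 CPM against 4.38, 2.35 and 2.57 (−1.39, standard error 0.52, adjusted p = 0.535). Odorant-binding protein genes, which serve the antenna, showed 7 members apart and higher (30.4%) and 4 lower (17.4%) among 23 tested, against 8.15% and 9.11% of all genes, with a median that changed sign between alternatives. *Obp56d* had 51.9, 47.3 and 58.3 CPM against 73.0, 66.2 and 73.0 (0.43, standard error 0.12, adjusted p = 0.369), and *Obp19d* 184.9, 204.7 and 217.0 against 247.2, 240.0 and 283.2 (0.34, adjusted p = 0.444). None of these passed the test, and the groups did not overlap in any gene named here.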

How the data were processed

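Reads were aligned by the authors (HISAT2 2.1.0) and assembled with StringTie 2.0 on Ensembl's BDGP6.28 annotation and the authors deposited estimated counts per gene as whole numbers, without normalization. TruSeq v2 libraries do not mark strand, so reads of overlapping genes cannot be told apart. Entries that name no gene (69, at most 0.0123% of a library's counts) were left out. Symbols came from Ensembl's BDGP6.54 annotation, which held 17626 of the 17722 identifiers, and sequences from RefSeq's Release 6. Genes with a count of 10 by filterByExpr and a total of 15 entered edgeR 4.0.16 under R 4.3.3, with TMM factors and glmQLFit and glmQLFTest without a covariate. Their p-values were adjusted after Benjamini-Hochberg across every gene tested, with a threshold of 0.05. Where a group is called apart from another, every library of one lay beyond every library of the other. Tables were handled with pandas 2.3.3 and drawn with matplotlib 3.10.9 in Python 3.11.15, and scripts were tested on simulated data.

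Genes were named by rule: all called genes, the 8 with the smallest p-values in each direction among genes with counts in every library, apart and alike in both tables (within 5% or 10 counts), the network genes of the study, up to 3 members of each list by highest CPM and 3 by smallest p-value, and the 5 most abundant genes present in one group only, in each direction. Further list members were chosen after their values were seen, as were the spelling and window of the start site motif. The members and lists were chosen with earlier results of these data known. Alternatives were median-of-ratios factors, library totals alone, no filter or a mean of 50 counts, DESeq2 1.42.0 with and without its filters, a robust fit, a replicate block, the counts or all groups of the 3-group table, only genes alike in both tables, and each library left out. Leaving out rRNA and mitochondrially encoded genes, or replicate 2 of both groups, was chosen after seeing the data. Reads, human PARIS counts and the other groups' comparisons were not analysed here. One item of the ribosomal protein list is not reported here on its own.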

Additional observations from a re-analysis of the deposited data

How the results depend on the processing

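Depth and the spread between 3 libraries per group limit these results, and counts of called genes moved widely with the method. Against 4 lower and 1 higher gene, DESeq2 called 185 and 136 by default and 237 and 162 when its own filtering was off, edgeR's robust fit 11 and 7, and all 3 groups in one fit 27 and 8. With the counts of the 3-group table there were 0 lower genes (396 at an unadjusted p-value under 0.05 by edgeR) and 2 higher, the genes alike across tables gave 2 lower, and with library totals alone 0 higher (33 unadjusted). Without replicate 2 of both groups there were 0 higher genes (356 unadjusted). Leaving out 1 library at a time gave between 0 lower genes (without PARIS C571A replicate 2, 506 unadjusted) and 19 (without PARIS WT replicate 1) and between 0 higher genes and 6 (without PARIS C571A replicate 1). Same-numbered libraries had deviations from their group means that correlated at 0.04, 0.05 and 0.02, against −0.06 to 0.02 for libraries of unlike number. The main fit did not take the numbers as pairs. Replicate 2 of both groups lacked *mt:ATPase6* counts, and whether the numbers mark a batch was not tested. With a replicate block 0 genes were lower and 0 higher (284 and 296 unadjusted). The genes without counts in PARIS C571A numbered 17 in place of 10 in the 3-group table. The cause of these shifts was not tested. The direction turned for *RpLP1* (adjusted p = 0.0011 with the 3-group table, 8.23e-06 with 3 groups in one fit), *NimB5* (0.0777 and 0.011), *CtsL3* (0.262 and 0.106) and *Obp19c* (0.0985 and 0.425), and for *Ddc* with library totals alone (1.00). Of 1647 values of 88 named genes under the alternatives, 1447 kept their direction and side of the threshold, 160 newly passed it, 31 no longer did and 9 turned. The 31 all belong to the few genes called in the main fit. Most of the 88 were not called there, and such a gene keeps its side by staying uncalled. The 1447 are therefore no measure of how stable the calls are. The median of all genes moved from −0.03 to −0.14 with library totals alone. Of 719 list medians 78 changed sign, in 18 lists. The median of the ribosomal protein genes stayed between 0.16 and 0.33, that of the testis genes between −3.23 and −2.47 and that of the glutathione S-transferases between 0.16 and 0.40.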

Other observations

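In the 3-group table, the testis genes summed to 677 ± 30.0 CPM (SD, n = 3) in TRAP control, the group with the driver and the tag but no PARIS transgene, above both PARIS groups. The accessory gland genes summed to 49.4 ± 4.5 CPM there and the respiratory paralogs to 34.0 ± 3.7 CPM (SD, n = 3 each). The ribosomal protein genes summed to 40619.6 ± 2263 CPM and the glutathione S-transferase genes to 622 ± 60.9 CPM in TRAP control (SD, n = 3 each).

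Genes outside the lists and the main ranking were looked at last. *Scp2*, a calcium-binding protein gene, had 66.0, 61.9 and 57.7 CPM in PARIS C571A and 34.4, 40.6 and 35.3 in PARIS WT (log2 fold change −0.75, standard error 0.13, adjusted p = 0.21 from edgeR). *dysf*, a transcription factor gene, had no counts in PARIS C571A and 3.84, 1.80 and 2.28 CPM in PARIS WT. *Gat*, the GABA transporter gene of glia, had 30.4, 22.5 and 26.8 CPM against 18.7, 20.8 and 18.5 (−0.46, standard error 0.17, adjusted p = 0.541 from edgeR). *Galphaq*, the G protein of phototransduction, had 254.2, 221.8 and 244.6 CPM against 191.5, 203.3 and 198.6, with counts that differ between the tables.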
